A study of Mus musculus with 15 samples.

Results

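The transcripts of the chemokine ligands of the CC and CXC families were described in bulk RNA sequencing of 15 mouse bone marrow samples. All protein-coding genes with a symbol made of Ccl or Cxcl and a number were taken, which gave 32 genes, 20 CC and 12 CXC ligands, of 38315 genes in the table. Of these, 24 reached a value of 10 in at least 1 sample and were counted as measured, and 17 reached 10 in at least 4 samples and entered the statistical test. The other 8, Ccl7, Ccl11, Ccl12, Ccl20, Ccl21a, Cxcl5, Cxcl15 and Cxcl17, were counted as not measured, with a highest value of 9.87. Values are normalized counts, that is, estimated reads per gene divided by 1 size factor for each library.

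The samples formed 3 groups. Acute myeloid leukaemia (AML) marrow came from 7 samples of the genotype NUP98NSD1/FLT3ITD, which joins the nucleoporin gene NUP98 to the histone methyltransferase gene NSD1 and adds an internal tandem duplication in the receptor tyrosine kinase FLT3. The normal groups were 4 samples of Wild Type whole marrow and 4 of Wild Type lineage-negative marrow, in which cells with markers of mature lineages are depleted. Strain, age, sex, the promoters of the transgenes and whether each sample was 1 mouse are not given in the sources used here, and no treatment is named. Samples are called by group and replicate number, for example AML 3.

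Chemokines are small secreted proteins that guide cells through receptors coupled to G proteins. CC and CXC ligands are named for the spacing of their first cysteines, and most bind receptors of the matching CCR or CXCR family. In marrow, Cxcl12 from stromal cells holds stem cells and neutrophils through Cxcr4, while ligands of Cxcr2 and Ccr2 draw neutrophils and monocytes towards the blood.

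Estimated depth was 20300000 to 35100000 reads in AML, 11400000 to 17200000 in whole marrow and 20300000 to 28100000 in lineage-negative marrow, and 3 reads corresponded to a normalized count of 1.96 to 4.09. Whole marrow had a higher background. The mean over 1451 olfactory and vomeronasal receptor genes, which blood-forming cells are not known to use, was 7.14 to 13.5 there and 0.385 to 0.499 in lineage-negative marrow. The AML libraries had 0.465 to 0.746 in 5 cases, 1.33 in AML 5 and 3.81 in AML 6. The markers of neutrophils and of stem and progenitor cells followed the labels of the normal groups. The sums of T and NK, of mast cell and basophil and of stroma markers, given below, were higher in lineage-negative than in whole marrow. The summed level of 9 neutrophil markers was 397247 to 1378390 in AML, 427150 to 1142180 in whole marrow and 743 to 16798 in lineage-negative marrow. The sum of 6 stem and progenitor markers was 100535 to 151497 in lineage-negative marrow and 15299 to 33567 in whole marrow. In bulk RNA, a difference in the number of cells of a type and a difference in RNA per cell cannot be told apart.

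The 17 tested ligands were read from 1 limma fit of the log2 values (pseudocount 1) over 18941 genes. A ligand was called at a Benjamini-Hochberg adjusted p under 0.05 and a log2 difference of at least 1 in size. In AML against lineage-negative marrow 8 ligands were higher, where 17.7% of all genes were, and 2 were lower, where 12.5% were. The 8 were Ccl5, Ccl6, Ccl9, Ccl22, Cxcl9, Cxcl10, Cxcl12 and Cxcl16, and the 2 were Ccl3 and Ccl4. In AML against whole marrow 4 ligands were higher (Ccl5, Ccl9, Cxcl9 and Cxcl16) and 1 was lower (Ccl28), where 27.3% and 11.3% of all genes were. Ccl28 reached 10 in whole marrow alone, so the filter fixed its direction against whole marrow here and in the counts below. In lineage-negative against whole marrow 2 were higher (Ccl3 and Ccl4), where 33.1% of all genes were. Another 9 were lower (Ccl5, Ccl6, Ccl22, Ccl28, Cxcl2, Cxcl9, Cxcl10, Cxcl12 and Cxcl14), where 17.2% were. Each pair of comparisons shares a group, so the counts are not independent of each other.

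All genes together were shifted against whole marrow. The median log2 difference of all genes was 0.67 in AML and 0.59 in lineage-negative marrow against whole marrow, and 0.02 between AML and lineage-negative marrow. The medians of the 17 ligands were 0.24, −1.54 and 1.71 in the same order. Where a value is called relative to all genes, this median has been subtracted. With TMM scaling (trimmed mean of M values), AML against whole marrow had 3 ligands higher (Ccl5, Ccl9 and Cxcl16), where 4.73% of all genes were. It had 4 lower (Ccl3, Ccl28, Cxcl2 and Cxcl12), where 16.04% were. Under the same scaling the 8 and 2 ligands called against lineage-negative marrow were the same genes (17.6% and 12.4% of all genes). Lineage-negative against whole marrow kept its 2 higher ligands (10.96% of all genes) and gained Cxcl16 as 1 of 10 lower ones (24.8%). Counting ligands whose groups did not overlap, 4 lay above and 1 below whole marrow in AML, where 35.8% and 7.88% of all genes did. Against lineage-negative marrow 6 lay above and 2 below (16.98% and 17.6%), and for lineage-negative against whole marrow 4 lay above and 7 below (41.1% and 16.6%).

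**Figure D1:**
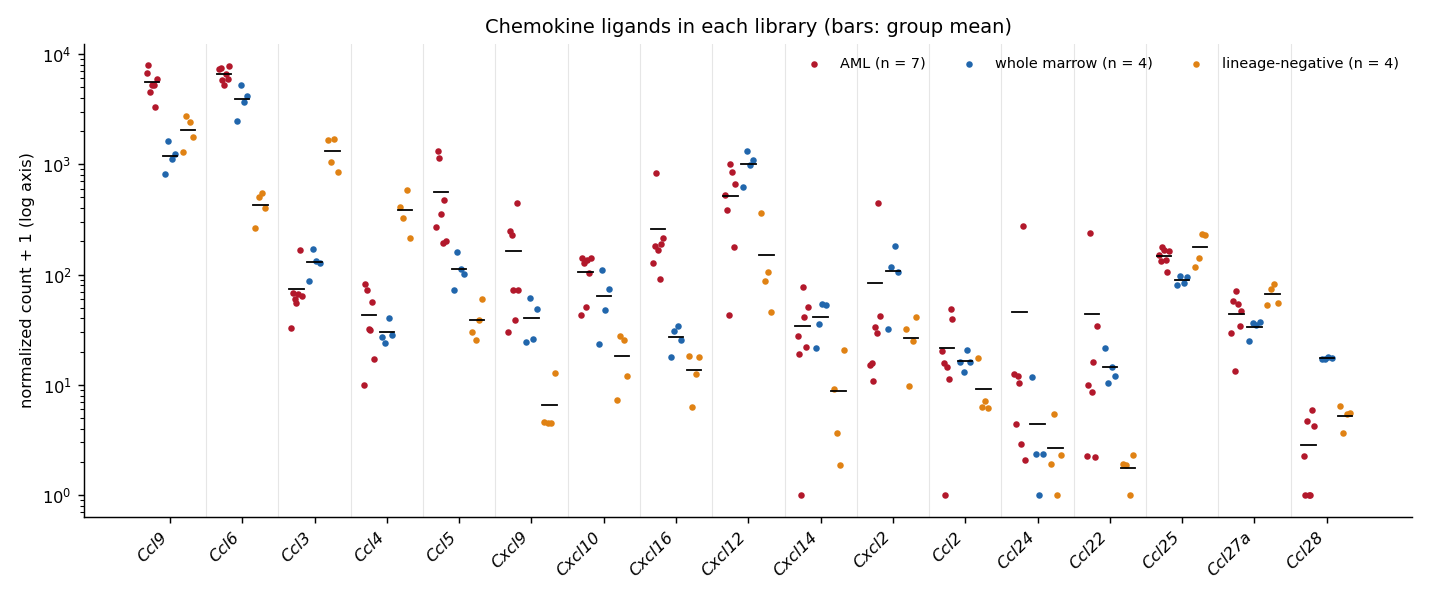
Normalized count plus 1 (log axis) of the 17 tested ligands in each library, with AML in red, whole marrow in blue and lineage-negative marrow in orange, and black bars at the group means. Ccl6 and Ccl9 are the highest in AML, and Ccl3 and Ccl4 are higher in all 4 lineage-negative libraries than in any other.

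**Figure D2:**
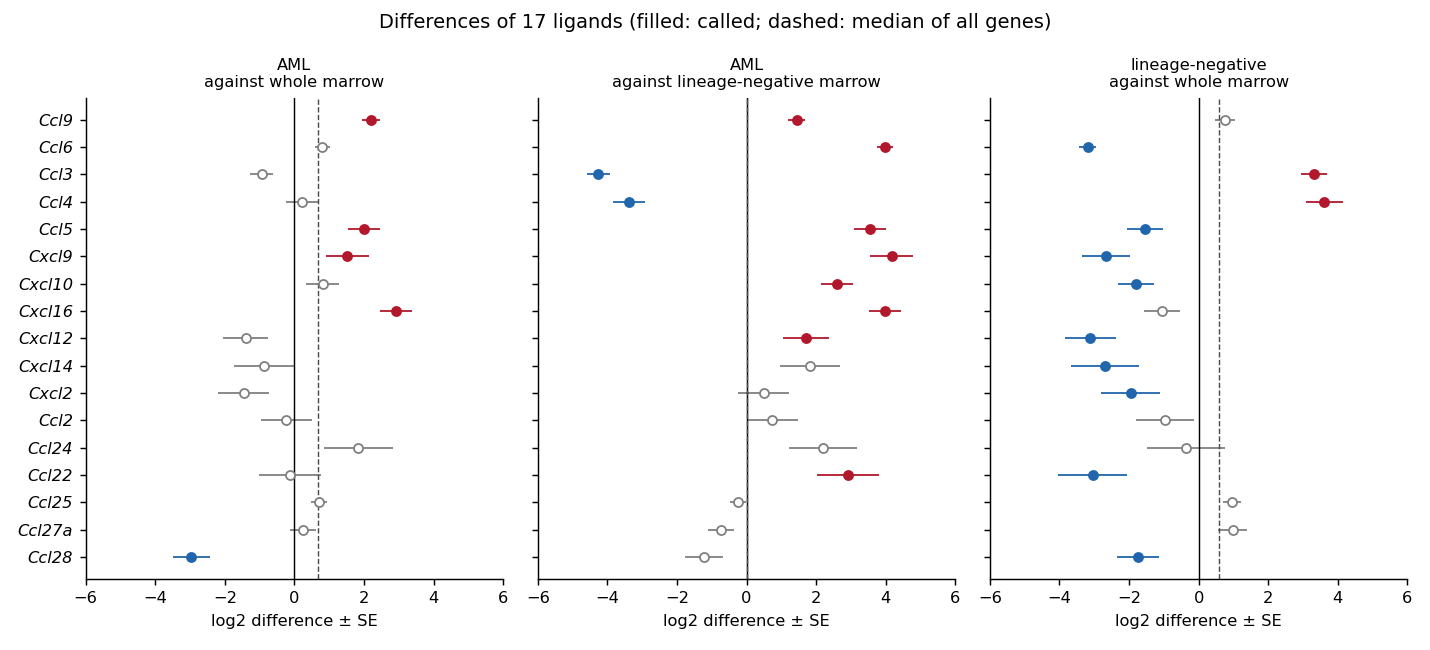
Log2 difference with its standard error for the same ligands in the 3 comparisons. Filled points were called (red higher, blue lower), and the dashed line is the median of all genes, 0.67, 0.02 and 0.59 from left to right.

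The macrophage inflammatory proteins and their relatives, inflammatory CC ligands of myeloid cells and T cells, made up most of the ligand transcripts in every group, but with different members in the lead. Levels of different genes were compared per kilobase of exon. Ccl6 and Ccl9, mouse ligands of Ccr1 made by myeloid cells, held 81.7% of the summed ligand level in AML (range 69.3 to 91.8) and 79.4% in whole marrow (77.5 to 80.8). They held 27.9% in lineage-negative marrow (16.2 to 37.6). Ccl3 and Ccl4, which attract monocytes and T cells, held 66.8% in lineage-negative marrow (58.3 to 78.9), 6.72% in whole marrow (6.03 to 7.40) and 2.37% in AML (0.801 to 4.79). These shares do not depend on the scaling between libraries.

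**Figure D3:**
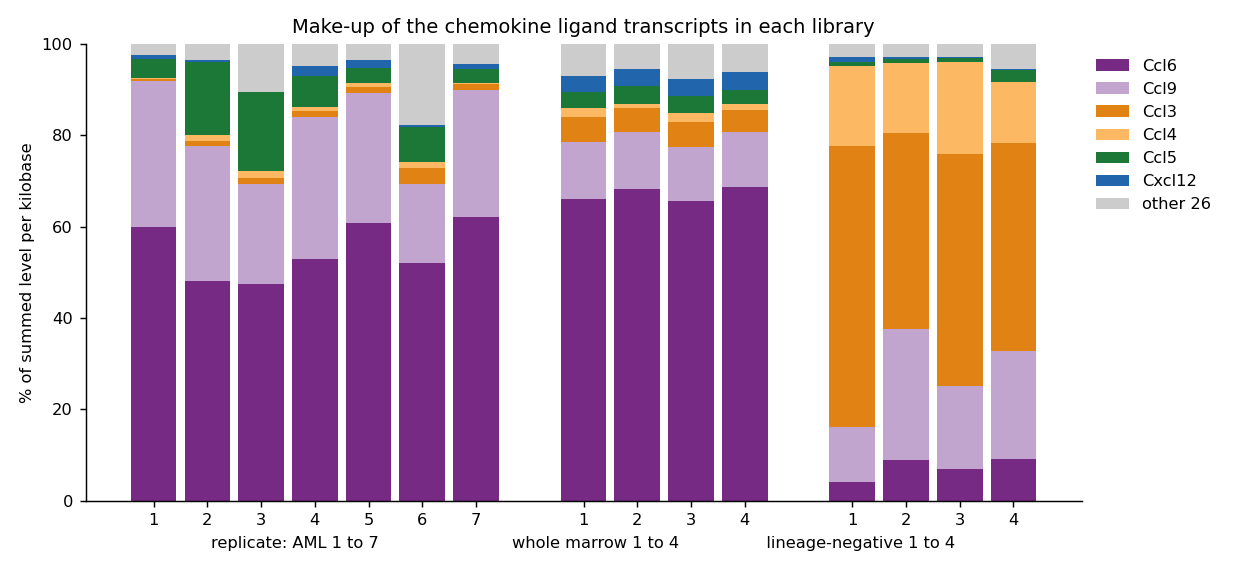
Share of the summed ligand level per kilobase in each library, in percent, for 6 ligands and the sum of the other 26. Ccl6 and Ccl9 fill most of each bar in AML and whole marrow, and Ccl3 and Ccl4 fill most of each bar in lineage-negative marrow.

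These 4 genes lie within 91.8 kb of chromosome 11, from 83463745 to 83555509 in the coordinates of the table. The RefSeq sequences of the 250 bases before the start of 3 of them (GRCm38.p6, minus strand) are shown because neighbours here had opposite directions. They are chr11:83578637-83578886 for Ccl9, chr11:83593088-83593337 for Ccl6 and chr11:83649379-83649628 for Ccl3. Gene starts in the table differ from GRCm38 for most genes, so these positions cannot be set against the coordinates of the table. Capitals mark a match to the NF-kappaB consensus.
Ccl9: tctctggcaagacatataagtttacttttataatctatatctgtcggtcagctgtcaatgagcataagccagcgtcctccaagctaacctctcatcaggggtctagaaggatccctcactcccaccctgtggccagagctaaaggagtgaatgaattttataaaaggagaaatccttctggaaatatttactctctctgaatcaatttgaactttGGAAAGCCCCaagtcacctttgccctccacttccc
Ccl6: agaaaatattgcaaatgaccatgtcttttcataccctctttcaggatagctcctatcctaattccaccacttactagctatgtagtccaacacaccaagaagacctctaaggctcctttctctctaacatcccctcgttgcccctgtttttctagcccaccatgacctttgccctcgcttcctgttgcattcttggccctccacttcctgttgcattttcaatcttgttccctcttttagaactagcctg
Ccl3: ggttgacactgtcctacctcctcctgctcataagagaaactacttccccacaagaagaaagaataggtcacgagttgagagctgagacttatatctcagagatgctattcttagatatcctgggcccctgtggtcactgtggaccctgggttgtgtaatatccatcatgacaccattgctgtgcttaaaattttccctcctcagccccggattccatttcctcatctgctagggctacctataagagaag
Among the RefSeq promoters, 23 of the 32 ligands had an entry, and 19 of the 24 measured ones. The NF-kappaB consensus was searched on both strands and was in 3.90% of 32851 promoters of this length. It was in 6 of the 23, Ccl9, Ccl20, Cxcl1, Cxcl2, Cxcl3 and Cxcl10. The C/EBP motif TTGCNNAA was in 9.56% of all promoters and in 3 of the 23, Ccl21a, Ccl27a and Cxcl13, and the ETS motif GAGGAAGT was in 2.44% and in 0 of the 23. Of the 3 promoters printed here, only that of Ccl9 held a match to the NF-kappaB consensus. A match is a string of letters and not evidence of binding.

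Ccl9 was higher in AML than in both normal groups. AML values ran from 3289.8 to 7874 with a median of 5205, against 808, 1627, 1126 and 1232 in whole marrow and 1291, 2763, 2441 and 1749 in lineage-negative marrow. Every AML library lay above all 8 normal ones. The log2 difference was 2.20 ± 0.25 (SE) against whole marrow (limma adjusted p = 1.40e-06, 1.53 relative to all genes) and 1.44 ± 0.25 against lineage-negative marrow (limma adjusted p = 8.39e-05).

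Ccl6 was high in AML and whole marrow. It ran from 5191 to 7857 in AML with a median of 6547, and was 2482, 5212, 3691 and 4163 in whole marrow and 264, 503, 544 and 398 in lineage-negative marrow. AML overlapped whole marrow at 1 library, and both stood above all lineage-negative libraries. The log2 difference of AML from lineage-negative marrow was 3.98 ± 0.22 (limma adjusted p = 7.20e-11). Against whole marrow it was 0.80 ± 0.22, under the minimum of 1, and 0.12 relative to all genes. Lineage-negative marrow was lower than whole marrow by a log2 difference of −3.19 ± 0.25 (limma adjusted p = 1.87e-08).

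The ratio of Ccl9 to Ccl6 within a library separated the groups. Per kilobase its median was 0.468 in AML (0.330 to 0.619), 0.182 in whole marrow (0.174 to 0.192) and 2.76 in lineage-negative marrow (2.59 to 3.24), so no ranges overlapped. Ccl9 itself was not called in lineage-negative against whole marrow. The log2 difference was 0.77 ± 0.28 (limma adjusted p = 0.0222), under the minimum of 1, and 0.18 relative to all genes. The sum of 7 monocyte markers was, like Ccl9, highest in AML. It was 100508 to 223197 in AML, 23532 to 47529 in whole marrow and 20610.4 to 35927 in lineage-negative marrow. All 7 of these markers were called higher in AML in both comparisons (27.3% of all genes against whole and 17.7% against lineage-negative marrow). With TMM scaling 6 were called higher against whole marrow (4.73%). Their part in the Ccl9 difference was not tested.

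Ccl3 and Ccl4 went the other way. Ccl3 was 1660.2, 1039, 1702 and 852 in lineage-negative marrow and 87.1, 170.2, 131 and 127 in whole marrow, and ran from 31.8 to 167 in AML with a median of 62.6. Ccl4 was 405, 322, 579 and 215 in lineage-negative marrow and 26.03, 22.8, 39.7 and 27.3 in whole marrow, and ran from 8.91 to 81.0 in AML with a median of 31.3. For both genes all 4 lineage-negative libraries lay above the other 11.

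For Ccl3, the log2 difference of AML from lineage-negative marrow was −4.26 ± 0.33 (limma adjusted p = 3.74e-09), and that of lineage-negative from whole marrow was 3.32 ± 0.37 (limma adjusted p = 6.60e-07, 2.73 relative to all genes). For Ccl4 they were −3.38 ± 0.47 (limma adjusted p = 7.88e-06) and 3.61 ± 0.53 (limma adjusted p = 1.04e-05, 3.02 relative to all genes). Against whole marrow the AML value of Ccl3 was −0.94 ± 0.33, under the minimum of 1, but −1.63 and called lower with TMM scaling (limma adjusted p = 0.000824). Its highest AML value, 167 in AML 6, lay within the range of whole marrow. Ccl4 was not called in AML against whole marrow (0.23 ± 0.47, and −0.44 relative to all genes).

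Within libraries, Ccl6 stood at 42.3 times Ccl3 per kilobase in AML (median, range 15.1 to 99.1), 12.6 times in whole marrow (12.0 to 14.0) and 0.168 times in lineage-negative marrow (0.0679 to 0.207). Markers of mast cells and basophils, which can make Ccl3 and Ccl4, were highest where these ligands were. Their sum over 5 genes was 22339.7 to 40152 in lineage-negative marrow, 2703 to 6840.4 in whole marrow and 178 to 3062 in AML, and no marker was at 0 in any library. The stem and progenitor markers given above were also highest in lineage-negative marrow, and their sum was 12894 to 73089.6 in AML. In AML against whole marrow all 5 mast cell and basophil markers were called lower (11.3% of all genes). Of the 6 stem and progenitor markers 1 was called higher there (0 with TMM scaling) and 0 lower. Ccl4 was not called there, and Ccl3 was called lower with TMM scaling only. The part of either marker list in the result was not tested.

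Ccl5, which attracts T cells and monocytes, was higher in AML than in both normal groups. The AML values ran from 193 to 1320.4 with a median of 356, against 70.9, 159, 111 and 101 in whole marrow and 29.05, 24.7, 37.9 and 59.4 in lineage-negative marrow. All 7 AML libraries lay above the normal ones, and AML 2 (1320.4) and AML 3 (1129) lay far above the other 5, whose highest was 470.1. The log2 difference was 2.00 ± 0.46 against whole marrow (limma adjusted p = 0.000993, 1.33 relative to all genes) and 3.54 ± 0.46 against lineage-negative marrow (limma adjusted p = 3.30e-06). Lineage-negative was lower than whole marrow by −1.54 ± 0.52 (limma adjusted p = 0.0139).

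T and NK cells are a known source of Ccl5. The sum of 9 T and NK markers was 780.2 to 5281 in AML, 745 to 1388 in whole marrow and 1456 to 1961 in lineage-negative marrow. It was 2677 in AML 2, 3494 in AML 3 and 5281 in AML 6, the 3 libraries with the highest Ccl5. In AML against whole marrow 5 of the 9 markers were called higher (27.3% of all genes). With TMM scaling 0 were higher (4.73%) and 2 were lower (16.04%). Against lineage-negative marrow 5 were higher in AML and Nkg7 was lower (17.7% and 12.5% of all genes). Lineage-negative marrow had 7 markers lower than whole marrow (17.2% of all genes), although its sum was higher. Nkg7 was higher there (33.1% of all genes), but not called with TMM scaling. Their part in the Ccl5 difference was not tested.

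The interferon-inducible ligands of Cxcr3, Cxcl9 and Cxcl10, recruit activated T and NK cells and lie within 27.5 kb of each other on chromosome 5. Their promoters are shown because both genes were higher in AML than in lineage-negative marrow (RefSeq, GRCm38.p6, minus strand, chr5:92328080-92328329 and chr5:92348890-92349139). Capitals mark matches to the interferon response motif (GAAA, 2 bases of any kind and GAAA, on either strand) and to the NF-kappaB consensus.
Cxcl9: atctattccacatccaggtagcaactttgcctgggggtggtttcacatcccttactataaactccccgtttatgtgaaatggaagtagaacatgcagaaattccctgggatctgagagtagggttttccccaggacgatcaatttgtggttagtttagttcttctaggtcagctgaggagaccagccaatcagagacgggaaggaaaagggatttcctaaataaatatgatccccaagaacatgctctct
Cxcl10: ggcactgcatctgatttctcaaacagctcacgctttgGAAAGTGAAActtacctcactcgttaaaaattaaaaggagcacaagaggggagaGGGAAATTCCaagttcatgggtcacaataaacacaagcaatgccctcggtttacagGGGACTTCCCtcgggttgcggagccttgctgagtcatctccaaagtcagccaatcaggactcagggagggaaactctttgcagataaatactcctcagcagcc
The Cxcl10 promoter held both motifs and the Cxcl9 promoter held neither of them in this window. The interferon response motif was in 2.98% of all promoters and in 3 of the 23 ligands, Ccl19, Cxcl10 and Cxcl14.

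Cxcl9 ran from 29.3 to 443 in AML with a median of 71.8, and was 23.3, 60.3, 25.05 and 47.8 in whole marrow and 3.63, 3.53, 3.53 and 11.7 in lineage-negative marrow. AML overlapped whole marrow, and all of its libraries were above lineage-negative marrow. AML 6 (443), AML 2 (249.7) and AML 3 (228) were the highest, and the other 4 were at most 71.8. The log2 difference from lineage-negative marrow was 4.18 ± 0.61 (limma adjusted p = 1.43e-05).

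Against whole marrow the Cxcl9 difference was 1.52 ± 0.61 (limma adjusted p = 0.0362), and 0.85 relative to all genes. With TMM scaling it was 0.84 and not called (limma adjusted p = 0.323). The call was lost in 8 of 26 settings, among them quantile normalization (1.29, limma adjusted p = 0.0962). It was also lost without AML 2 (1.32, limma adjusted p = 0.0703), AML 3 (1.34, 0.0630), AML 6 (1.18, 0.0732), whole marrow 1 (1.32, 0.130) or whole marrow 3 (1.35, 0.0951). Lineage-negative was lower than whole marrow (−2.65 ± 0.69, limma adjusted p = 0.00242).

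Cxcl10 ran from 42.0 to 140.2 in AML with a median of 127, and was 22.4, 109.9, 47.0 and 72.3 in whole marrow and 6.35, 26.4, 24.7 and 11.1 in lineage-negative marrow. Its AML values overlapped those of whole marrow and lay above those of lineage-negative marrow. The log2 difference from lineage-negative marrow was 2.61 ± 0.47 (limma adjusted p = 0.000125), and that from whole marrow was 0.81 ± 0.47 and not called. Lineage-negative was lower than whole marrow (−1.80 ± 0.53, limma adjusted p = 0.00572). Of the Cxcl10 exons, 133 of 2252 bases overlap Art3 on the opposite strand, and the strand used for counting is not given in the sources used here.

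Of the genes of the interferon response of these ligands, Irf1, Irf8, Gbp2, Gbp4 and Cxcr3 were called higher in AML against both whole and lineage-negative marrow. Of all genes, 27.3% and 17.7% were, or 4.73% and 17.6% with TMM scaling. With TMM scaling all 5 were called against lineage-negative marrow, but only Irf8 (1.64) and Gbp2 (1.49) against whole marrow. Ifng, a known inducer of Cxcl9, was not called in either. Its highest AML values were 127.8 in AML 6, 46.6 in AML 3 and 27.02 in AML 2, the 3 libraries with the highest Cxcl9. The part of Ifng in the Cxcl9 values was not tested.

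Cxcl16, a ligand of Cxcr6 that occurs on the cell surface and in soluble form, was higher in AML than in both normal groups. It ran from 90.2 to 838 in AML with a median of 182, against 16.7, 29.5, 33.4 and 24.6 in whole marrow and 17.2, 5.29, 11.5 and 16.97 in lineage-negative marrow. All AML libraries lay above all normal ones. The log2 difference was 2.92 ± 0.46 against whole marrow (limma adjusted p = 3.40e-05, 2.25 relative to all genes) and 3.97 ± 0.46 against lineage-negative marrow (limma adjusted p = 7.38e-07). The AML mean was 258 ± 259 (SD, n = 7), and 162 without AML 3. Of the Cxcl16 exons, 552 of 3021 bases overlap Zmynd15 on the opposite strand. Whether reads of the 2 genes there were separated is not given in the sources used here.

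Cxcl12, the stromal ligand of Cxcr4 that keeps stem cells and neutrophils in the marrow, differed widely among leukaemic marrows. It was 524, 380.2, 41.7, 1000.4, 848, 175 and 657 in AML 1 to 7. It was 617, 1308, 982 and 1082 in whole marrow and 364, 87.2, 105 and 44.4 in lineage-negative marrow. AML overlapped both normal groups, with AML 3 below the lowest lineage-negative library and AML 4, 5 and 7 within the range of whole marrow.

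Lineage-negative marrow had less Cxcl12 than whole marrow (log2 difference −3.11 ± 0.74, limma adjusted p = 0.00118). AML was higher than lineage-negative marrow by 1.71 ± 0.66 (limma adjusted p = 0.0404). That call was lost in 14 of 26 alternative settings, among them the removal of AML 1, 2, 4, 5 or 7, of whole marrow 1, or of lineage-negative 2, 3 or 4. The adjusted p was then 0.0533 to 0.161 and the log2 difference 1.27 to 1.71. Against whole marrow AML stood at −1.41 ± 0.66 (limma adjusted p = 0.0685), −2.08 relative to all genes, and was called lower with TMM scaling (−2.10, limma adjusted p = 0.0218).

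Lepr, the leptin receptor, marks the stromal cells that are the main source of Cxcl12 in marrow. In AML 1 to 7 it was 143.8, 82.1, 2.45, 204.5, 210.5, 54.3 and 213.6. AML 3 and AML 6 were the lowest for both genes, and AML 1, 4, 5 and 7 were the highest 4 for both. Lepr was 126.5, 268.0, 185.8 and 182.8 in whole marrow and 37.2, 3.53, 13.2 and 5.22 in lineage-negative marrow. The sum of 8 stroma genes, Lepr among them, was 462, 390.3, 277, 878, 679.5, 285 and 664 in AML 1 to 7, with AML 3 and AML 6 again the lowest. Between the normal groups the sum ran against Lepr, with 471 to 862 in whole marrow and 893 to 1951 in lineage-negative marrow. There Adipoq, Kitl, Lepr and Pdgfra were called lower in lineage-negative marrow and Pdgfrb higher, and Bglap was at 0 in all 4 whole marrow libraries and in 5 others. Of the 7 stroma genes tested, Kitl and Lepr were called higher in AML than in lineage-negative marrow (17.7% of all genes). Col1a2 and Pdgfrb were called lower there (12.5%), and all AML sums lay below those of lineage-negative marrow. Against whole marrow Col1a2 alone was called, and it was lower in AML (11.3% of all genes). With TMM scaling 4 stroma genes were lower there (16.04%). The part of the stroma in the Cxcl12 differences was not tested.

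**Figure D4:**
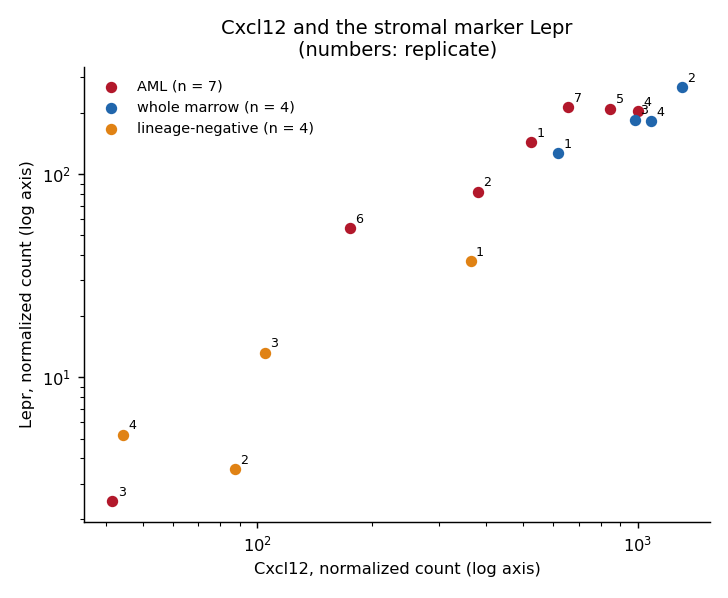
Cxcl12 (x axis) against Lepr (y axis) as normalized counts on log axes, with 1 point for each of the 15 libraries, numbered by replicate and coloured by group. AML 3, at 41.7 and 2.45, and AML 6, at 175 and 54.3, are the lowest AML points on both axes.

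Cxcl14, a CXC ligand of epithelia and stroma, was 20.6, 34.8, 53.2 and 51.8 in whole marrow and 8.17, 2.64, 0.881 and 19.6 in lineage-negative marrow. In AML it ran from 0 in AML 3 to 76.9 in AML 4, with a median of 26.7. The groups of normal marrow did not overlap, and AML spanned both. Lineage-negative was lower than whole marrow by −2.69 ± 0.98 (limma adjusted p = 0.0216). The call was lost in 4 settings, among them the removal of whole marrow 3 (−2.52, limma adjusted p = 0.0519), lineage-negative 2 (−2.45, 0.0541) or lineage-negative 3 (−2.13, 0.0808). AML was called against neither group.

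Of 5 ligands of Cxcr2 with a Cxcl symbol (Cxcl1, Cxcl2, Cxcl3, Cxcl5 and Cxcl15), which draw neutrophils, only Cxcl2 reached the test. Cxcl1, Cxcl3, Cxcl5 and Cxcl15 were low, with a highest value of 24.1. By mean level per kilobase among all ligands, Cxcl2 ranked 6 in whole marrow, 10 in lineage-negative marrow and 11 in AML. The Cxcl2 promoter is shown because its highest value stood in 1 leukaemic marrow (RefSeq, GRCm38.p6, plus strand, chr5:90903649-90903898). Capitals mark the stretch covered by matches to the NF-kappaB consensus.
Cxcl2: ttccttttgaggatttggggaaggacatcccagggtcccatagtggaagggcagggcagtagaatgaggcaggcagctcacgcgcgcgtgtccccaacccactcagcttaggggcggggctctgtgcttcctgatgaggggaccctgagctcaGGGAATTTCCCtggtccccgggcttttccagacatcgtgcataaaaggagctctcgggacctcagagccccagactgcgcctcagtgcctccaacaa
Cxcl2 was 31.4, 115, 179 and 104 in whole marrow, 30.8, 8.81, 23.8 and 39.8 in lineage-negative marrow, and ran from 9.80 to 441 in AML with a median of 28.3. AML 6 held 441, and no other AML library exceeded 41.0. The AML mean was 82.9 ± 158 (SD, n = 7), and 23.3 without AML 6.

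Lineage-negative marrow had less Cxcl2 than whole marrow (−1.95 ± 0.84, limma adjusted p = 0.0486). That call was lost in 12 of 26 settings, among them the removal of AML 4, 5 or 7, of whole marrow 2, 3 or 4, or of lineage-negative 1, 2 or 3 (limma adjusted p 0.0536 to 0.143). AML was not called against whole marrow (−1.46 ± 0.74, limma adjusted p = 0.0921), and was lower with TMM scaling (−2.14, limma adjusted p = 0.0354). Cxcl1 reached at most 24.1, in lineage-negative 4, and Cxcl3 at most 17.1, in whole marrow 1. Neutrophil markers did not separate AML from whole marrow, with 0 of 9 called by limma under either scaling and 0 at an unadjusted p under 0.05.

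Among the monocyte-attracting ligands of Ccr2, only Ccl2 was tested and it was called in no comparison. It was 15.3, 12.1, 19.8 and 15.01 in whole marrow, 16.3, 5.29, 6.17 and 5.22 in lineage-negative marrow, and ran from 0 in AML 3 to 48.1 in AML 6 with a median of 14.6. A value of 0 in AML 3 allows a level of up to 3.68, the value of 3 reads. The AML difference was −0.23 ± 0.73 against whole and 0.74 ± 0.73 against lineage-negative marrow. Ccl8 was at most 5.36 in the 8 normal libraries but 155 in AML 6 and 36.8 in AML 3. Its AML median was 5.39, and its AML mean of 30.4 ± 56.5 (SD, n = 7) became 9.56 without AML 6.

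Ccl24, an eotaxin and ligand of Ccr3 that is also made by macrophages, was 275 in AML 6 and at most 11.5 in the other 14 libraries. Its AML mean was 44.8 ± 102 (SD, n = 7), and 6.35 without AML 6. It was not called against whole marrow (1.84 ± 0.99, limma adjusted p = 0.110) or lineage-negative marrow (2.20 ± 0.99, limma adjusted p = 0.0765).

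Ccl22, a ligand of Ccr4 typical of mature dendritic cells, was 235 in AML 3, and 1.23 to 33.4 in the other 6 AML libraries. It was 20.6, 9.38, 13.6 and 10.9 in whole marrow, and 0.908, 0.881, 0 and 1.31 in lineage-negative marrow, where it lay under the level of 3 reads. The AML mean was 43.3 ± 85.4 (SD, n = 7), and 11.3 without AML 3. AML was called higher than lineage-negative marrow (2.92 ± 0.89, limma adjusted p = 0.0110), and lineage-negative lower than whole marrow (−3.05 ± 1.00, limma adjusted p = 0.0123). Since the lineage-negative values are near 0, the sizes depend on the pseudocount. With quantile normalization neither was called (2.07, limma adjusted p = 0.0726, and −1.65, 0.182). The call against whole marrow was also lost with a pseudocount of 5 (−1.66, limma adjusted p = 0.0608) and with background subtraction (−2.48, 0.0680). Ccl17, the other ligand of Ccr4, was also highest in AML 3 at 23.3, and was at most 11.5 elsewhere.

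The homeostatic CC ligands showed smaller contrasts. Ccl25, best known from thymus and gut, was 79.9, 95.1, 82.4 and 94.1 in whole marrow, 117, 141, 230.0 and 225 in lineage-negative marrow, and 104 to 176 in AML with a median of 148. All AML libraries lay above whole marrow, but the log2 difference of 0.71 ± 0.23 was under the minimum of 1 and 0.04 relative to all genes. Of its exons, 204 of 7445 bases overlap Elavl1 on the opposite strand. Ccl27a, a skin chemokine with near-identical copies in the mouse genome, was called in no comparison. It was 23.8, 35.6, 34.2 and 36.4 in whole marrow, 52.0, 73.5, 80.7 and 54.5 in lineage-negative marrow, and 12.3 to 70.4 in AML.

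Ccl28, a chemokine of mucosal epithelia, was 16.2, 16.1, 16.7 and 16.4 in whole marrow, 5.45, 2.64, 4.41 and 4.57 in lineage-negative marrow, and 0 to 4.94 in AML with a median of 1.27. No AML library reached whole marrow, and the log2 difference was −2.96 ± 0.54 (limma adjusted p = 0.000139). The gene passed the filter through the 4 whole marrow libraries alone, so it had to be lower in the other groups, and both calls are given as a description. Without any 1 of these 4 libraries it was not tested. Lineage-negative was lower than whole marrow by −1.75 ± 0.61 (limma adjusted p = 0.0176). That call was lost in 4 settings, among them quantile normalization (−0.88, limma adjusted p = 0.108). It was also lost without lineage-negative 2 (−1.58, limma adjusted p = 0.0516). In whole marrow Ccl28 stood at percentile 86.1 of the olfactory and vomeronasal receptor genes per kilobase. With that background subtracted, AML differed from whole marrow by −1.47 (limma adjusted p = 0.0299) and lineage-negative marrow by −0.03 (limma adjusted p = 0.975).

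The remaining measured ligands reached 10 in few libraries. Ccl1 was 13.5 in AML 3 and at most 2.69 elsewhere, and Cxcl13, the B cell chemokine, was 23.3 in AML 3 and at most 5.07 elsewhere. Ccl19, a ligand of Ccr7, reached 21.8 in AML 6, and 9.80 in AML 3.

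Across the 24 measured ligands, AML 6 held the highest AML value of 10 and AML 3 of 6. AML 2 and AML 4 were highest for 3 each, AML 7 for 2, and AML 1 and AML 5 for 0. Ccl1 and Cxcl13 reached 10 in AML 3 alone, Ccl19 in AML 6 alone and Ccl8 in AML 3 and AML 6 alone. These ligands counted as measured only through the libraries where they were high, which fixed their place in the count. The same count over all genes was not made. AML 6 also had the highest background of the AML libraries, as given above, and 3 of its 10 ligands were near it. Per kilobase Ccl28 was 1.02, Cxcl3 2.48 and Cxcl1 2.63 there, where the 95th percentile of the olfactory and vomeronasal receptor genes was 2.49. Several marker sums were also highest in these libraries. The sum of 6 conventional dendritic cell markers was 16399 in AML 3 and 1778 to 8417 in the other AML libraries. Ccr7, carried by mature dendritic cells, was 759.8 there against 47.1 to 127.6. The sum of 9 tissue macrophage markers was 8956 in AML 6 and 8919 in AML 3, against 3997 to 6503 in the other 5, and C1qa was 1213 in AML 6 against 114 to 541. The part of these cells in the high ligand values was not tested. With AML 3 and AML 6 left out together, Ccl5, Ccl9 and Cxcl16 were still called higher in AML than in whole marrow, and Cxcl9 was not (0.89, limma adjusted p = 0.149).

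**Figure D5:**
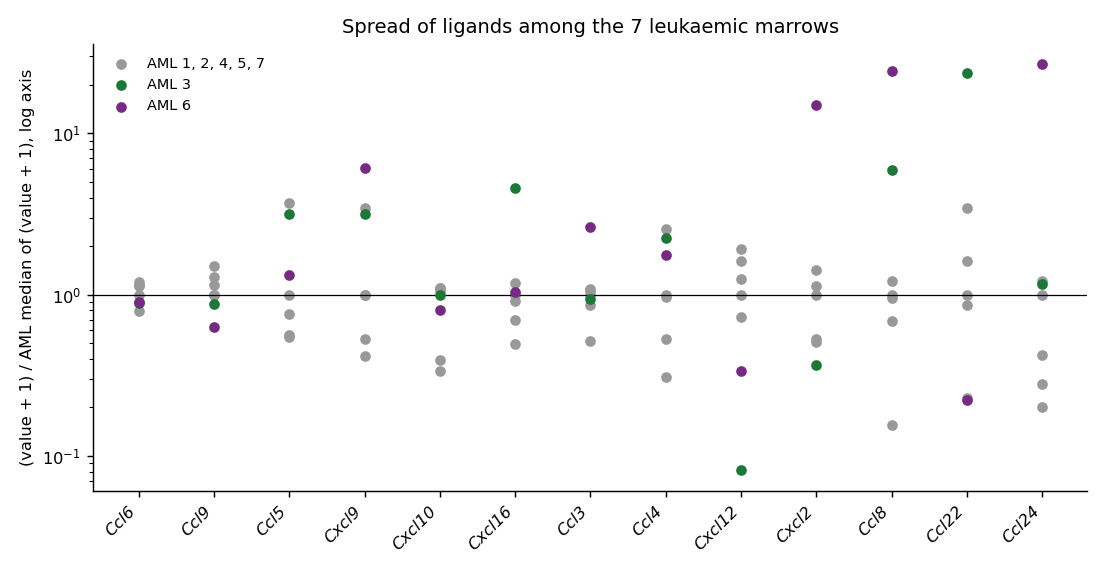
Value plus 1 of 13 ligands in each of the 7 AML libraries, divided by the AML median (log axis), with AML 3 in green, AML 6 in purple and the others in grey. Ccl6 and Ccl9 stay close to the median in all libraries, while AML 6 stands out for Cxcl2, Ccl8 and Ccl24 and AML 3 for Cxcl16 and Ccl22.

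Of 23 chemokine receptors, 21 were tested. In AML against lineage-negative marrow limma called 14 higher and 0 lower (17.7% and 12.5% of all genes), with 2 lower at an unadjusted p under 0.05, and with TMM scaling the counts of calls were the same. Against whole marrow 6 were higher, among them Ccr2, Ccr8 and Cx3cr1, and 4 lower (Ccr3, Ccrl2, Ackr1 and Ackr4), where 27.3% and 11.3% of all genes were, and 4 and 6 with TMM scaling (4.73% and 16.04%). Lineage-negative against whole marrow had 0 higher, also at an unadjusted p under 0.05, and 13 lower (33.1% and 17.2% of all genes), or 16 lower with TMM scaling (24.8%).

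Ccr2, the monocyte receptor of Ccl2, had a mean of 29740 ± 9779 (SD, n = 7) in AML. The mean was 6130 in whole marrow and 3005 in lineage-negative marrow (n = 4 each), and its log2 difference from whole marrow was 2.27 ± 0.28 (limma adjusted p = 3.16e-06). Ccr1, the receptor of Ccl6 and Ccl9, had means of 3376 in AML, 2831 in whole and 389.9 in lineage-negative marrow and was not called against whole marrow. Cxcr4, the receptor of Cxcl12, had means of 8631, 5405 and 3877 in the same order. It was called higher against lineage-negative marrow (1.15 ± 0.25, limma adjusted p = 0.000788) but not against whole marrow (0.68, and 0.01 relative to all genes).

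Genes of the NF-kappaB pathway, which induces many of these ligands, were a list of 17, each read singly from the same fit. In AML against whole marrow 12 were higher and only Il1b was lower, where 27.3% and 11.3% of all genes were. With TMM scaling 1 was higher and 1 lower (4.73% and 16.04% of all genes). Against lineage-negative marrow limma called 8 higher and 0 lower under both scalings, and 0 were lower at an unadjusted p under 0.05. Of all genes, 17.7% were higher and 12.5% lower there, or 17.6% and 12.4% with TMM scaling. Of 4 chemokines outside the naming rule, the platelet genes Pf4 and Ppbp were lower in AML than in whole marrow (−3.27 ± 0.84, limma adjusted p = 0.00244, and −3.39 ± 0.63, limma adjusted p = 0.000153). Pf4 was also lower, and Xcl1 higher, than in lineage-negative marrow. Cx3cl1 was not called in AML against either group. Of 6 megakaryocyte and platelet markers, 4 were called lower in AML in both comparisons (11.3% of all genes against whole and 12.5% against lineage-negative marrow). Itgb3 was higher against lineage-negative marrow (17.7%). The part of these markers in the Pf4 and Ppbp differences was not tested.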

How the data were processed

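Bulk RNA sequencing of total RNA (TRIzol extraction, TruSeq Stranded Total RNA libraries, per the labels) was analysed in 7 AML, 4 whole and 4 lineage-negative marrow samples, grouped by their titles. The deposited values are a signal, estimated reads per gene that the authors divided by a DESeq2 poscounts size factor, per the name of the table, and they are called normalized counts. The submitters' processing notes name STAR, Partek, DESeq2 and mm10, with no versions or roles. Gene starts in the table equalled those of GENCODE M21 (GRCm38) for 861 of 38066 shared identifiers, and lengths for 37557, so coordinates of genes are the table's own, and M21 gave exon lengths and overlaps. Promoters came from RefSeq.

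Low values were whole multiples of 1 step in 81.6% to 87.3% of cases (tolerance 0.02 of a step), so whole reads were not recovered and count tests were not run. Depth is the total divided by the step, and covers counting error only. Genes with at least 10 in at least 4 samples (18941) entered 1 fit of 3 group means with limma 3.58.1 in R 4.3.3 (log2 with a pseudocount of 1, trended empirical Bayes, two-sided, Benjamini-Hochberg adjustment over all genes kept). The procedure was tested on simulated data. The labels do not say that samples of a group are separate mice. The p-values set a group difference against the spread between samples, shared by the 3 groups, and take the samples as independent.

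Members with a mean of at least 50 in any group or called in any comparison were named with values, the others by ranges. The members, the marker and pathway lists and the naming rule were chosen with earlier results of these data known. Some results for single genes of these lists are not reported here. Alternatives were other pseudocounts, filters and scalings, a fit of each pair of groups, array weights, a replicate block and the removal of each library. The joint removal of AML 3 and AML 6 and the subtraction of background were chosen after seeing the data.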

Additional observations from a re-analysis of the deposited data

Results flagged for a closer look

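In 9 of 56 groups of 4 or 7 values, the highest or lowest sample was far from the others by Dixon's criterion on the log2 scale. Only groups with a value of at least 10 were looked at, which favours high outliers. Ccl1 in AML, and Ccl2 and Cxcl9 in lineage-negative marrow, entered through the flagged library alone. The usual chance rate of about 1 in 20 groups therefore cannot be set against this count. AML 3 gave 4 of them, with a high Cxcl16 of 838, a high Ccl1 of 13.5, and values of 0 for Ccl2 and Cxcl14. AML 6 gave a high Cxcl2 of 441 and a high Ccl24 of 275. The others were a high Ccl2 of 16.3 in lineage-negative 1, a high Cxcl9 of 11.7 in lineage-negative 4 and a low Ccl27a of 23.8 in whole marrow 1.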

How the results depend on the processing

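Of 26 ligand calls, 19 held in every one of the 26 alternative settings in which the ligand could be tested, and 0 of 663 refits reversed direction, while 46 lost the call. The 7 that were lost somewhere were Cxcl9 in AML against whole marrow, Cxcl12 and Ccl22 in AML against lineage-negative marrow, and Cxcl2, Cxcl14, Ccl22 and Ccl28 in lineage-negative against whole marrow. Ccl28 in AML against whole marrow was among the 19, but it could be tested in only 21 settings. The filter fixed the direction of both Ccl28 calls, so their refits tell nothing of stability in direction. The count of ligands lower in AML than in whole marrow was 1 and was the least stable. It was 5 with all genes above 0 (32 ligands tested, 29.6% of all genes lower), 0 with a mean of at least 50 (11 tested, without Ccl28, 3.62% of all genes), 4 with TMM scaling (16.04%), 3 with quantile normalization (12.1%), 4 with array weights (12.6%), 3 without AML 3 and AML 6 together (11.5%), and 0 to 3 when single libraries were left out. The 0 arose without whole marrow 2, 3 or 4. Ccl28 missed the filter without any whole marrow library, and the 1 ligand lower without whole marrow 1 was another gene. Ligands higher in lineage-negative than in whole marrow numbered 4 with background subtraction (41.01% of all genes) and 2 with the values as deposited (33.1%). Without single libraries, the other counts were 3 to 4 higher against whole marrow and 7 to 10 higher and 2 to 3 lower against lineage-negative marrow for AML, and 2 to 3 higher and 6 to 10 lower for lineage-negative against whole marrow. Replicate numbers are shared between groups, but the labels give no pairing, and deviations of samples with the same number had correlations of −0.29 to 0.17. With the replicate number as a block, 3 ligands were lower in AML than in whole marrow (11.6% of all genes), and Cxcl12 lost its call against lineage-negative marrow (1.45, limma adjusted p = 0.143). The cause was not tested. Tests on whole reads with edgeR and DESeq2 were not run. Ligands near 3 reads, such as Ccl22 in lineage-negative marrow, were not reliably detectable at this depth.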

Other observations

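Cxcl11, the other interferon-inducible ligand of Cxcr3, is annotated in the table as a polymorphic pseudogene and was left out of the 32 genes. It was at most 9.33, in whole marrow 1, and 6.13 in AML 3, with 0 in 3 of 4 lineage-negative libraries.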
